A study of Mus musculus with 8 samples.

Results

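The genes described here are 95 splicing factor and splicing kinase genes, out of 19938 genes measured in cultured mouse hippocampal neurons. They were picked by gene symbol, with a rule that uses no measured value but was written with earlier results of these data known: the SR protein genes (Srsf, 10 genes), the CDC-like kinases (Clk, 3), the L-type cyclins (Ccnl, 2), the Luc7-like factors (Luc7l, 3), the SF3 complex (Sf3a and Sf3b, 9), Tra2 (2), Hnrnp (17), Ptbp (3), Rbfox (3), Nova (2), Celf (6) and the numbered Rbm genes (35). A gene with several transcript clusters, the probe groups of the array, was represented by the cluster with the highest mean signal, and this applied to 18 members. One of the symbols taken in by the rule, Rbm3os, belongs to an RNA gene antisense to Rbm3 and not to a protein gene. Clk2, Hnrnpa1, Hnrnpa3, Hnrnph3, Rbm4, Rbm12 and Rbm14 are among the genes whose rows carry several gene symbols, and these were not analysed here.

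Splicing removes introns from pre-mRNA in the nucleus. SR proteins bind exons and favour their inclusion, hnRNP proteins often oppose them, and the U1 and U2 particles mark the donor site and the branch point of the intron. The Clk kinases phosphorylate SR proteins and so release them from nuclear speckles, where splicing factors are stored. Neurons add regulators of their own, such as the Nova, Rbfox and Celf proteins, and depolarisation is known to change both exon choice and the splicing of retained introns. Clk1 transcripts also exist in a form that keeps introns, which a signal for the whole gene does not tell from the spliced form.

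The neurons came from the hippocampus of ICR mice, an outbred strain, at E17.5, late in gestation,, and had been cultured for 10 days. All cultures came from this strain and differed by the time of exposure to 50 µM bicuculline, a blocker of GABA-A receptors that raises network firing: 0, 30, 180 or 300 min, with 2 biological replicates at each time. RNA was hybridised to 8 Affymetrix Mouse Gene ST 1.0 arrays, and the values are log2 signals, so a difference of 1 is a doubling. The labels name no untreated culture kept for 30, 180 or 300 min, so time in culture medium after the start and bicuculline cannot be told apart.

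Array medians lay between 4.84 and 4.88, and replicate arrays correlated at r = 0.991 to 0.994 across genes. The stimulation was visible in Npas4, Fosb, Fos and Arc, which rose at 30 min by 3.88, 2.74, 2.29 and 2.38 on the log2 scale (limma, adjusted p under 0.05). All 8 neuronal markers exceeded a background level of 4.47, the 95th percentile of 1015 genes for olfactory receptors, and their mean per array ran from 9.25 to 9.39. So did all 6 astrocyte markers (array means 6.05 to 6.48), 4 of 5 oligodendrocyte, 3 of 6 microglial, 3 of 6 endothelial and mural, and 2 of 4 dividing-cell markers. None of these 35 markers passed the test in any comparison. In such bulk samples fewer cells of a type and less RNA per cell cannot be told apart.

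Of the 95 members, 90 had a mean signal above the olfactory receptor percentile. The exceptions were Rbm44 (3.61), Rbm47 (3.89), Rbm3os (4.35), Rbm46 (4.37) and Rbm8a2 (4.39). Signals of different genes depend on their probes and are not compared as levels here.

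The promoters of the 4 called kinase, cyclin and Luc7-like genes that the RefSeq promoter table holds are shown because these genes were called higher at the later times. Each is the 250 bases before the annotated start on assembly GRCm38.p6, read 5′ to 3′ on the gene's strand, with matches to TGACG or CCAAT on either strand in capitals. They lie at chr11:51262864-51263113 (Clk4, plus strand), chr4:155812239-155812488 (Ccnl2, plus), chr11:94321964-94322213 (Luc7l3, minus) and chr9:57765115-57765364 (Clk3, minus).

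Clk4: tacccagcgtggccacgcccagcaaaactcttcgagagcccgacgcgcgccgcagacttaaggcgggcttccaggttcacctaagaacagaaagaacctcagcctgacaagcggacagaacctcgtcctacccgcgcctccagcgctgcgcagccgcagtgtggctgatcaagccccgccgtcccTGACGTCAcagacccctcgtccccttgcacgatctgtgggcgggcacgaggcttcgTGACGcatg

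Ccnl2: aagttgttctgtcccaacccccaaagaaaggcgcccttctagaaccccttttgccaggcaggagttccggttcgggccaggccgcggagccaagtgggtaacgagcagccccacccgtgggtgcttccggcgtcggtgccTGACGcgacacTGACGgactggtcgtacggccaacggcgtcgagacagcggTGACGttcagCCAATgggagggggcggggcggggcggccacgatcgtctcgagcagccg

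Luc7l3: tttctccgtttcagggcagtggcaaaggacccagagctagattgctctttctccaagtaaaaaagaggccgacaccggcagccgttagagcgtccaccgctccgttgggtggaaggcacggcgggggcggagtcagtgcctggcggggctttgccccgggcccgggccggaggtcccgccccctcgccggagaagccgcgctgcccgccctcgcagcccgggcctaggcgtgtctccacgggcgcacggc

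Clk3: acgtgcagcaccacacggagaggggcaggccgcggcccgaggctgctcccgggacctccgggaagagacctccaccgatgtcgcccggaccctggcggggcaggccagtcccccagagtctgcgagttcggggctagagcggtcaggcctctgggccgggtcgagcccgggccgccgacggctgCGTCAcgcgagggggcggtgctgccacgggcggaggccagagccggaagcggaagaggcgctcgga

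Clk4 held the full cyclic AMP response element TGACGTCA, the site bound by CREB, from 65 to 58 bases before its start, and a further half-site TGACG from 9 to 5 bases before it. The full element contains the half-site on both strands, so its letters count for both motifs. Ccnl2 held 3 half-sites, beginning 110, 99 and 59 bases before its start, and a CCAAT box beginning 49 bases before it. Clk3 held 1 half-site, from 66 to 62 bases before its start, and Luc7l3 held neither motif in these bases. The full element was also present in Ccnl1, from 18 to 11 bases before its start, and in Celf3, Celf6 and Tra2a.

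Across the 78 members with a promoter in the table, 5 (6.41%) held the full element, against 1.77% of 27025 genes. The half-site stood in 32 of the 78 (41.0%), against 19.8% of all genes. The AP-1 motif TGANTCA stood in 3 members (3.85%), against 7.82% of genes, and CCAAT in 34 (43.6%), against 37.5%. The member promoters were also richer in G and C, with a median of 60.8% against 52.4% for all genes. The part of base composition in these shares was not tested. A match of letters is a description and does not show that a factor binds there.

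The 3 analysed Clk genes were higher late in the time course. Clk1, Clk4 and Clk3 rose when the 180 and 300 min arrays were set against the 0 and 30 min arrays, by 1.85-fold, 1.65-fold and 1.34-fold. In each of the 3 genes the 4 late arrays all lay above the 4 early ones. In the same comparison 1.2% of the 19938 genes rose and 1.01% fell (limma, adjusted p under 0.05). The pooling of times into late and early is not named by the labels and was also fixed with earlier results known. By size, Clk1 ranked 18 and Clk4 ranked 45 among the increases of all genes, and Clk3 ranked 219.

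Clk1 had signals of 6.33 and 6.33 at 0 min, 6.62 and 6.25 at 30 min, 7.42 and 6.86 at 180 min, and 7.29 and 7.51 at 300 min. The 0 min arrays stood together, and the 30 min arrays lay on either side of them. Both 300 min arrays stood about a doubling above those of 0 min, while the 180 min pair was spread widely. The change at 300 min was 2.1-fold against 0 min (log2 change 1.07 ± 0.18 SE, limma adjusted p = 0.0185), and Clk1 was the 1 member that passed there, where 0.226% of all genes were called higher and 0.0602% lower. At 180 min the change of 0.81 ± 0.18 had an adjusted p of 0.0741 (limma), with a range of 0.0389 to 0.407 over the alternatives, and it was 0.53 without 180 min replicate 1 and 1.09, with a limma adjusted p of 0.0235, without 180 min replicate 2. Without either 0 min array or either 300 min array the call at 300 min was lost, with a highest limma adjusted p of 0.145. Late against early, the change was 0.89 ± 0.12 SE (limma adjusted p = 0.00168), and the call held without each array in turn.

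The course of Clk4, a close relative of Clk1, was not tested against that of Clk1. Clk4 had signals of 6.79 and 6.61 at 0 min, 6.26 and 6.17 at 30 min, 7.05 and 6.98 at 180 min, and 7.24 and 7.44 at 300 min. The 30 min pair lay below every other array and the late pairs lay above every early array. The difference at 30 min, −0.49 ± 0.12 SE against 0 min, did not pass (limma adjusted p = 0.521), while the rise at 180 min against 30 min was 1.75-fold (0.80 ± 0.12 SE, limma adjusted p = 0.0118). Against 0 min, Clk4 differed by 0.32 at 180 min and by 0.64 at 300 min, neither of which passed (limma adjusted p = 0.309 and 0.0516, the second running from 0.0227 to 0.41 over the alternatives). Late against early, it changed by 0.72 ± 0.09 SE (limma adjusted p = 0.000675), the smallest p of any member, and this call held without each array in turn.

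Clk3 had signals of 7.48 and 7.51 at 0 min, 7.36 and 7.32 at 30 min, 7.78 and 7.91 at 180 min, and 8.0 and 7.70 at 300 min. Its 30 min pair lay below every other array. From 0 min, Clk3 differed by 0.35 at 180 min and by 0.35 at 300 min, and neither passed (limma adjusted p = 0.282 and 0.398). Its late arrays lay above its early ones with a narrow gap, and its change of 0.43 ± 0.09 SE (limma adjusted p = 0.0248) was the smallest of the 3 kinases. That call held without 2 of the 8 arrays and was lost without each of the other 6 in turn, with a highest limma adjusted p of 0.106. The F test over the 4 times called Clk1 and Clk4 (limma adjusted p = 0.0128 and 0.00163) and not Clk3 (0.139). The Srpk kinases of SR proteins on the lists, Srpk1, Srpk2 and Srpk3, differed by 0.09, −0.03 and 0.04 late against early. Further kinase genes on the lists, Prpf4b, Dyrk1a, Dyrk1b, Cdk11b, Cdk12 and Cdk13, differed by 0.22, 0.08, −0.16, 0.21, 0.02 and −0.07. The late arrays lay wholly above the early ones in Prpf4b and wholly below them in Dyrk1b. None of these kinase genes passed.

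**Figure D1:**
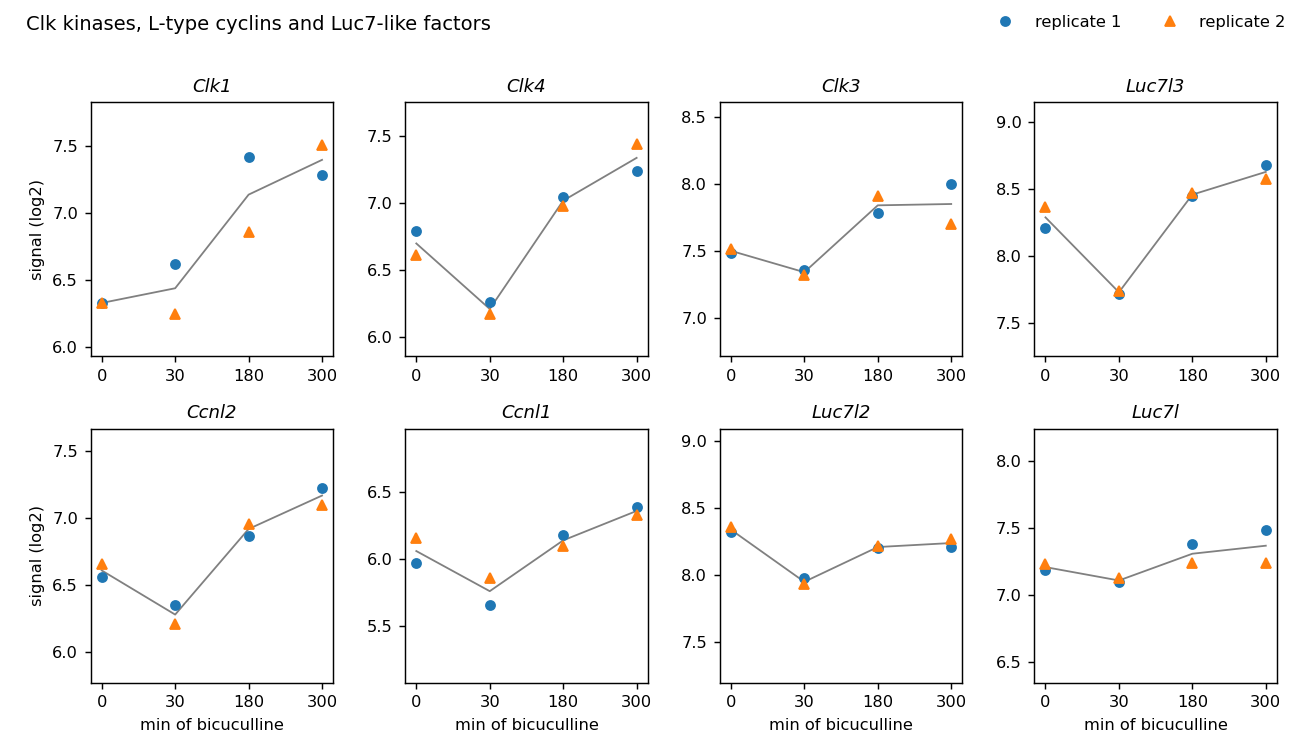
Log2 signal (vertical axis, every panel spanning 1.9 units) of the Clk, Ccnl and Luc7l genes against the time of bicuculline in min, drawn at even spacing and not to scale; symbols are the 2 replicate arrays and the line joins their means. In every gene shown but Clk1 both 30 min arrays lie below all others. The 180 and 300 min arrays lie above the 0 min arrays in every gene but Ccnl1 and Luc7l2, by a narrow margin in Luc7l.

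The L-type cyclins are partners of the kinase Cdk11 and carry an RS domain like that of SR proteins. Ccnl2 had signals of 6.56 and 6.66 at 0 min, 6.35 and 6.21 at 30 min, 6.87 and 6.96 at 180 min, and 7.23 and 7.10 at 300 min. The pairs of the 4 times did not overlap and stood in the order 30, 0, 180 and 300 min. Late against early, Ccnl2 rose 1.51-fold (0.60 ± 0.09 SE, limma adjusted p = 0.00209), with the call kept without each array in turn. Its rise at 180 min against 30 min was 1.56-fold (0.64 ± 0.12 SE, limma adjusted p = 0.0334), while the differences from 0 min were −0.33 at 30 min, 0.30 at 180 min and 0.56 at 300 min, none of which passed.

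Ccnl1 had signals of 5.97 and 6.16 at 0 min, 5.66 and 5.86 at 30 min, 6.18 and 6.10 at 180 min, and 6.39 and 6.33 at 300 min. The order of its means was that of Ccnl2, but its 180 min and 0 min arrays overlapped. Late against early it differed by 0.33 ± 0.09 SE and did not pass (limma adjusted p = 0.0698), except when genes of low signal were left out (0.0409, in a range of 0.0409 to 0.245 over the alternatives).

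Luc7-like proteins are the mammalian relatives of yeast Luc7, a component of the U1 particle that takes part in the choice of donor sites. Luc7l3 had signals of 8.21 and 8.37 at 0 min, 7.72 and 7.74 at 30 min, 8.45 and 8.47 at 180 min, and 8.68 and 8.58 at 300 min. Again the pairs did not overlap and the 30 min pair was the lowest. The difference at 30 min, −0.57 ± 0.12 SE, was the largest decrease among the members, yet its limma adjusted p was 0.204. It passed (0.0316) with a prior that both depends on signal and is robust to outliers, and over the alternatives the limma adjusted p ran from 0.0316 to 0.585. At 180 min against 30 min the rise was 1.66-fold (0.73 ± 0.12 SE, limma adjusted p = 0.0137), and late against early it was 1.45-fold (0.53 ± 0.08 SE, limma adjusted p = 0.00432), a call kept without each array in turn. The early arrays of that comparison include the low 30 min pair. Against 0 min, Luc7l3 differed by 0.17 at 180 min and by 0.34 at 300 min, and neither passed (limma adjusted p = 0.594 and 0.369).

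The 2 related genes did not pass in any comparison. Luc7l2 had signals of 8.32 and 8.36 at 0 min, 7.98 and 7.93 at 30 min, 8.20 and 8.22 at 180 min, and 8.21 and 8.27 at 300 min, so that its 30 min pair also lay below all other arrays (−0.39 ± 0.11 SE against 0 min, limma adjusted p = 0.706) but its late arrays did not exceed those of 0 min. Luc7l had signals of 7.19 and 7.23 at 0 min, 7.10 and 7.13 at 30 min, 7.38 and 7.24 at 180 min, and 7.49 and 7.24 at 300 min. The 30 min pair of Luc7l too lay below all other arrays, and its late arrays lay narrowly above those of 0 min.

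Clk4, Ccnl2 and Luc7l3 were the 3 members called at 180 min against 30 min, where 0.331% of all genes were called higher and 0.171% lower. These calls were sensitive to leaving out an array. Without either 30 min array or 180 min replicate 1 all 3 were lost, and without 180 min replicate 2 those of Ccnl2 and Luc7l3 were lost. The estimates without each array in turn ran from 0.76 to 0.85 for Clk4, 0.56 to 0.71 for Ccnl2 and 0.72 to 0.74 for Luc7l3. The F test over the 4 times called Clk1, Clk4, Ccnl2 and Luc7l3, 4 of 95 members, against 0.813% of all genes. When every row of the deposited table was tested, rows without a gene included, Clk4 alone of the members kept its late call (limma adjusted p = 0.0484), and the other 5 members called late against early had limma adjusted p from 0.0592 (Ccnl2) to 0.167 (Clk3).

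Outside the Clk, Ccnl and Luc7l families, 0 of 87 members rose and 1, Rbm46, fell late against early, with a median change of 0.00, where 1.2% of all genes rose and 1.01% fell. These counts stand near that background, and the families set aside are those that hold the members that rose. The median of all 19938 genes was 0.00 and that of the 95 members 0.01. Counted over all 95 members, the 4 late arrays lay wholly above the 4 early ones in 10 genes (10.5%, against 3.47% of all genes) and wholly below in 4 genes (4.21%, against 5.36%). The first group held Clk1, Clk3, Clk4, Ccnl2, Luc7l3, Luc7l, Srsf9, Rbm4b, Celf3 and Sf3b2, and the second Rbm46, Rbm41, Rbm27 and Hnrnpul2.

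**Figure D2:**
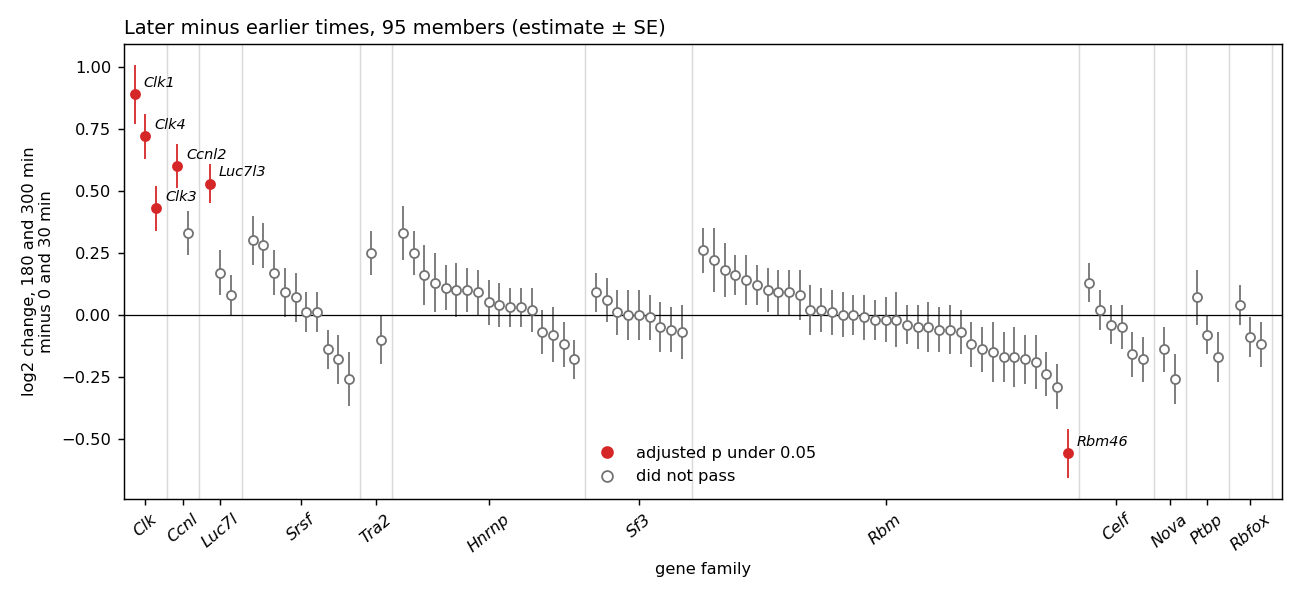
Log2 change of each of the 95 members between the 180 and 300 min arrays and the 0 and 30 min arrays (vertical axis, estimate ± SE), ordered within its gene family (horizontal axis); filled red points passed at a limma adjusted p under 0.05. The 5 members that rose are Clk1, Clk4, Clk3, Ccnl2 and Luc7l3, the 1 that fell is Rbm46, and the Celf, Nova, Ptbp and Rbfox genes lie between −0.26 and 0.13.

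At 30 min no member passed in either direction, and 0.0802% of all genes were called higher and 0.015% lower. Without adjustment, 2 members were higher and 12 lower at a p under 0.05, together 14 of 95, against 5.11% of all genes. Of the 95 members, 67 (70.5%) had a difference below 0 at 30 min, against 49.8% of all genes, and the members' median was −0.08 against 0.00. Quantile normalization took the members' median to −0.05. The 13535 genes above the olfactory receptor percentile had a median of −0.019 at 30 min.

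SR proteins, the substrates of the Clk kinases, lay on the lower side at that time. All 10 Srsf genes had differences below 0 at 30 min, from −0.49 to −0.06 with a median of −0.18, and none passed. Srsf5, which favours exon inclusion, had signals of 8.25 and 8.48 at 0 min, 7.78 and 7.98 at 30 min, 8.34 and 8.10 at 180 min, and 8.37 and 8.37 at 300 min. Its 30 min arrays lay below all the others (−0.49 ± 0.13 SE, limma adjusted p = 0.673). Late against early, the Srsf genes ranged from −0.26 to 0.30 with a median of 0.04, and none passed.

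Srsf3, which also acts in mRNA export, had the lowest difference of the family late against early. Its signals were 8.94 and 9.21 at 0 min, 8.86 and 8.99 at 30 min, 8.71 and 8.69 at 180 min, and 8.55 and 8.99 at 300 min, a difference of −0.26 ± 0.11 SE that did not pass (limma adjusted p = 0.262) and in which the late and early arrays overlapped. The other transcript clusters of Srsf3, with lower mean signals, differed by −0.17 and −0.37 late against early, and neither passed (limma adjusted p = 0.434 and 0.111). Srsf10, a regulator of splicing under stress, differed from 0 min by −0.39 at 180 min, with 0 min arrays of 7.43 and 7.83. The other cluster of Srsf10, also of lower mean signal, differed by −0.12 ± 0.14 SE at 180 min. Srsf6 differed by −0.33 at 180 min, and Srsf12 stayed between 6.05 and 6.27 on all 8 arrays.

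Tra2a and Tra2b encode RS-domain proteins that bind exonic enhancers. Tra2a had signals of 7.43 and 7.27 at 0 min, 7.17 and 7.26 at 30 min, 7.72 and 7.49 at 180 min, and 7.52 and 7.39 at 300 min, and its late change of 0.25 ± 0.09 SE did not pass (limma adjusted p = 0.196). Tra2b, for which the late arrays lay among the early ones, differed by −0.10.

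The SF3 complex is the part of the U2 particle that holds the branch point. Its 9 members differed by −0.07 to 0.09 late against early, and none passed. Sf3b1, the largest subunit, was the exception to this narrow range at 30 min: its signals were 8.47 and 8.70 at 0 min, 8.07 and 8.07 at 30 min, 8.32 and 8.33 at 180 min, and 8.52 and 8.38 at 300 min. The 30 min pair lay below all other arrays, at −0.51 ± 0.12 SE against 0 min (limma adjusted p = 0.421), and the other 8 SF3 genes differed by −0.14 to 0.07 at that time. Sf3b5, a small subunit, differed by −0.05 late against early.

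**Figure D3:**
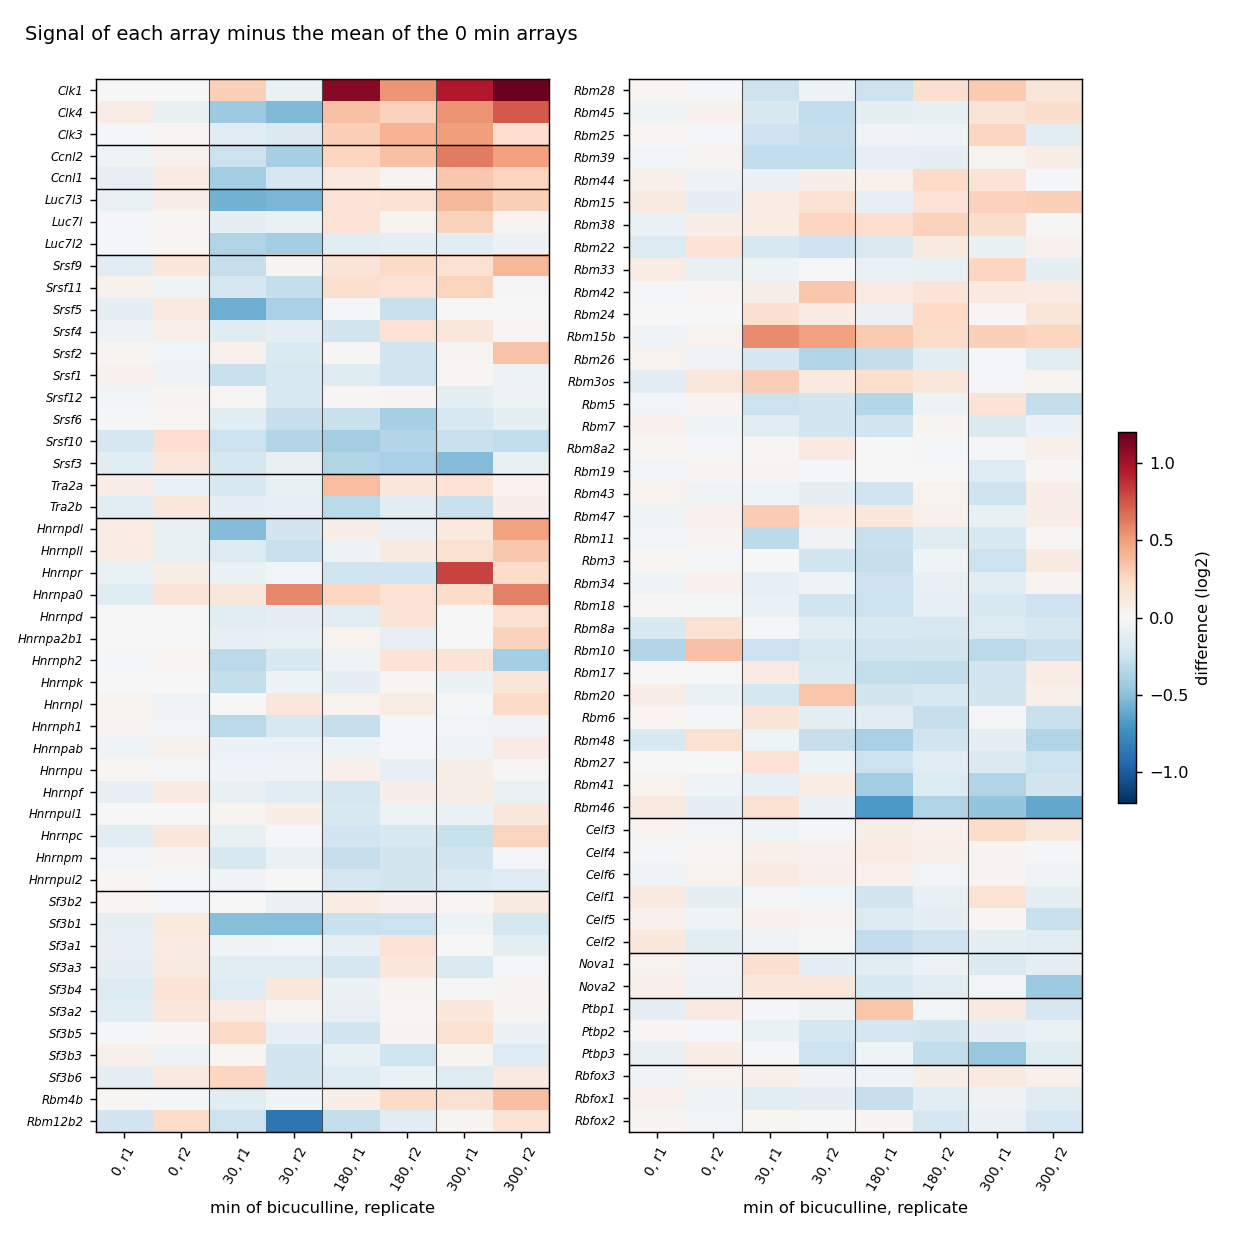
Difference in log2 signal between each array and the mean of the 2 arrays of 0 min (colour, red higher, blue lower) for the 95 members (rows, grouped by family and split over 2 panels) on the 8 arrays (columns, min of bicuculline and replicate number). Red late columns stand out in the Clk genes and Ccnl2 and are paler in Luc7l3. Hnrnpr, for example, is also red at 300 min. The 30 min columns are blue in Luc7l3, Clk4, Sf3b1 and Srsf5 and red in Rbm15b.

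The hnRNP proteins coat nascent transcripts. None of the 17 Hnrnp genes passed in any comparison over the 8 arrays, and late against early they ranged from −0.18 to 0.33 with a median of 0.05. Hnrnpdl, whose protein binds AU-rich RNA, stood at the upper end, with signals of 8.25 and 8.07 at 0 min, 7.64 and 7.94 at 30 min, 8.23 and 8.09 at 180 min, and 8.28 and 8.64 at 300 min, and its late and early arrays overlapped. Hnrnpr had signals of 7.02 and 7.18 at 0 min, 7.02 and 7.07 at 30 min, 6.86 and 6.87 at 180 min, and 7.91 and 7.31 at 300 min. Its 300 min arrays were both the highest and differed from each other by more than any other pair of that gene (0.51 ± 0.16 SE against 0 min, limma adjusted p = 0.308). That difference was 0.20 without 300 min replicate 1, and without 300 min replicate 2 it was 0.81 and passed (limma adjusted p = 0.0459).

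Hnrnpa0 had signals of 6.71 and 7.01 at 0 min, 7.0 and 7.44 at 30 min, 7.11 and 7.03 at 180 min, and 7.08 and 7.46 at 300 min, and its 30 min and 0 min arrays overlapped. Neither its difference of 0.36 at 30 min nor that of 0.41 at 300 min passed. Hnrnpk stayed between 10.26 and 10.69 on all arrays, and Hnrnpll, a regulator of exon choice known from lymphocytes, differed by 0.25 late against early (limma adjusted p = 0.2).

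Polypyrimidine tract binding proteins repress neuronal exons in other cells (Ptbp1) and in young neurons (Ptbp2). Ptbp1 had signals of 5.97 and 6.19 at 0 min, 6.07 and 6.02 at 30 min, 6.41 and 6.05 at 180 min, and 6.19 and 5.88 at 300 min. Ptbp2 stood between 8.97 and 9.21 on all arrays, with a largest difference from 0 min of −0.22 at 180 min. Ptbp3 differed from 0 min by −0.30 at 300 min. None of the 3 passed.

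The regulators best known from neurons had small differences. Rbfox1, Rbfox2 and Rbfox3, whose products bind near alternative exons and of which Rbfox3 is the neuronal marker NeuN, differed by −0.09, −0.12 and 0.04 late against early. Rbfox3 lay between 7.98 and 8.14 on all arrays. Nova1 and Nova2, whose products set the inclusion of exons in synaptic genes, differed by −0.14 and −0.26, and the larger of these rested on a 300 min pair of 7.59 and 7.19 for Nova2 (limma adjusted p = 0.217). None of these 5 genes passed in any comparison.

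The Celf proteins bind GU-rich RNA, and Celf3 to Celf6 are enriched in brain. Late against early, Celf1 to Celf6 differed by −0.05, −0.18, 0.13, 0.02, −0.16 and −0.04. Celf3 was the 1 whose late arrays, 8.95, 8.93, 9.10 and 9.02, all lay above the early ones, 8.91, 8.85, 8.84 and 8.87, by a margin smaller than its SE of 0.08. Celf2 reached −0.27 at 180 min against 0 min, and none of the 6 passed in any comparison.

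The numbered Rbm genes share an RNA-binding motif and little else in function. Of these 35 genes, 0 rose and 1 fell late against early, where 1.2% of all genes rose and 1.01% fell, and none passed in the other comparisons. Rbm46, known in mouse from germ cells, had signals of 3.93 and 4.26 at 180 min and 4.15 and 4.01 at 300 min, against 4.73 and 4.51 at 0 min and 4.80 and 4.55 at 30 min. It fell by 0.56 on the log2 scale (SE 0.10, limma adjusted p = 0.0116), with all late arrays below all early ones. Its mean of 4.37 lay below the olfactory receptor percentile, so the call concerns a signal within the range of that background. Without each array in turn the difference ran from −0.64 to −0.47, and the call was lost without replicate 1 of 0 min or of 30 min. The filter on low signals removed Rbm46, so it was not tested there.

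Rbm15b, an adaptor of the complex that methylates adenosines in mRNA, had the highest difference of any member at 30 min. Its signals were 7.26 and 7.34 at 0 min, 7.87 and 7.79 at 30 min, 7.61 and 7.52 at 180 min, and 7.59 and 7.56 at 300 min. Every array after 0 min lay above both 0 min arrays, with 30 min the highest, but the difference of 0.53 ± 0.12 SE did not pass (limma adjusted p = 0.249), nor did those of 0.27 at 180 min and 0.27 at 300 min. The second transcript cluster of Rbm15b differed by 0.14 ± 0.13 SE at 30 min. Rbm12b2 lay on the other side at 30 min (−0.55 ± 0.19 SE, limma adjusted p = 0.849), with widely spread arrays of 5.43 and 4.81 against 5.45 and 5.90 at 0 min.

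Among the remaining named Rbm genes, Rbm41 and Rbm27 had their late arrays wholly below the early ones, at −0.29 and −0.24, without passing. Rbm10, a regulator of exon skipping, differed by −0.30 at 300 min, and its 0 min arrays of 6.15 and 6.85 enclosed all others. Rbm17, a factor acting at the acceptor site, and Rbm48, linked in human cells to the minor spliceosome, differed by −0.29 and −0.31 at 180 min. At 30 min Rbm47, a partner of RNA editing, Rbm38, a target of p53, Rbm42 and Rbm3os differed by 0.20, 0.17, 0.19 and 0.21, and none passed. Rbm3, a gene induced by cold, lay between 9.01 and 9.39 on all arrays, and Rbm44 between 3.49 and 3.79.

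Against 0 min, no member passed at 180 min (0.211% of all genes were called higher and 0.12% lower), and without adjustment 5 were higher and 6 lower, against 12.8% of all genes in either direction. The members' median was −0.08, with 63 of 95 below 0 (66.3%, against 50.1% of all genes, whose median was 0.00). Under quantile normalization the members' median was −0.02. The 13535 genes above the olfactory receptor percentile had a median of −0.038 at 180 min. At 300 min Clk1 was called, and 11 members, Clk1 included, were higher and 2 lower without adjustment, against 8.96% of all genes. No gene of the whole table passed at 300 against 180 min, and 3 members were higher and 0 lower without adjustment, against 5.72% of genes.

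Other genes of the splicing machinery give the setting. Of 76 listed components of the core spliceosome, 72 were measured, and late against early 3 of them rose (4.17%, against 1.2% of all genes), 0 fell (against 1.01%) and the median was 0.03. These were Snrnp70 (0.54 ± 0.10 SE), the protein of the U1 particle that contacts its stem, Prpf38b (0.54 ± 0.08 SE) and Cwc22 (0.50 ± 0.10 SE), which brings the exon junction complex to the spliceosome, with limma adjusted p of 0.0124, 0.00432 and 0.0166. Against 0 min, none of the 72 passed at 180 or 300 min. At these times Snrnp70 differed by 0.27 and 0.42, Prpf38b by 0.42 and 0.6 and Cwc22 by 0.12 and 0.31. Their differences from 0 min at 30 min were −0.39, −0.04 and −0.58. Cwc22 had signals of 9.07 and 9.06 at 0 min, 8.35 and 8.61 at 30 min, 9.29 and 9.07 at 180 min, and 9.52 and 9.21 at 300 min, and it also rose at 180 against 30 min (0.70, limma adjusted p = 0.0443), a call kept without 2 of the 8 arrays. Prpf38b had signals of 6.77 and 6.89 at 0 min, 6.74 and 6.84 at 30 min, 7.21 and 7.30 at 180 min, and 7.40 and 7.47 at 300 min, without a low 30 min pair.

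Of 73 further regulators, 67 were measured, and 4 rose (5.97%, against 1.2% of all genes), 1 fell (1.49%, against 1.01%) and the median was 0.03. Malat1, a long nuclear RNA found in speckles, changed by 0.78 (limma adjusted p = 0.00317), Pnisr by 0.49 (0.0128), Pnn, a speckle protein, by 0.41 (0.0249) and Tial1, a U-rich RNA binding protein, by 0.36 (0.0399). Against 0 min, none of the 67 was called higher at 180 or 300 min. Malat1 had signals of 10.01 and 10.09 at 0 min, 9.28 and 9.33 at 30 min, 10.62 and 9.99 at 180 min, and 10.56 and 10.66 at 300 min, so its 30 min pair was also the lowest, and it rose at 180 against 30 min (1.00, limma adjusted p = 0.0143), a call kept without 5 of the 8 arrays. Raver2, whose product works with polypyrimidine tract binding proteins, fell by 0.67 (SE 0.09, limma adjusted p = 0.00119). Its signals were 5.54 and 5.60 at 180 min and 5.64 and 5.92 at 300 min, against 6.37 and 6.29 at 0 min and 6.38 and 6.32 at 30 min. It was also called at 180 min against 0 min (−0.76, limma adjusted p = 0.024) and against 30 min (−0.78, limma adjusted p = 0.0137), calls kept without 2 and 5 of the 8 arrays.

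Prpf38b, Malat1 and Raver2 kept these late calls without each array in turn. Cwc22 lost its call without 4 of the 8 arrays, replicate 1 of each time, and Snrnp70 and Pnisr without 3, replicate 1 of 0, 30 and 300 min. Pnn lost it without 7 of 8 and Tial1 without each of the 8, with highest limma adjusted p from 0.0912 to 0.206 over these 5 genes. At 30 min none of either list passed, and the medians were −0.08 and −0.07, with 81.9% of the core spliceosome genes and 73.1% of the further regulators below 0.

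**Figure D4:**
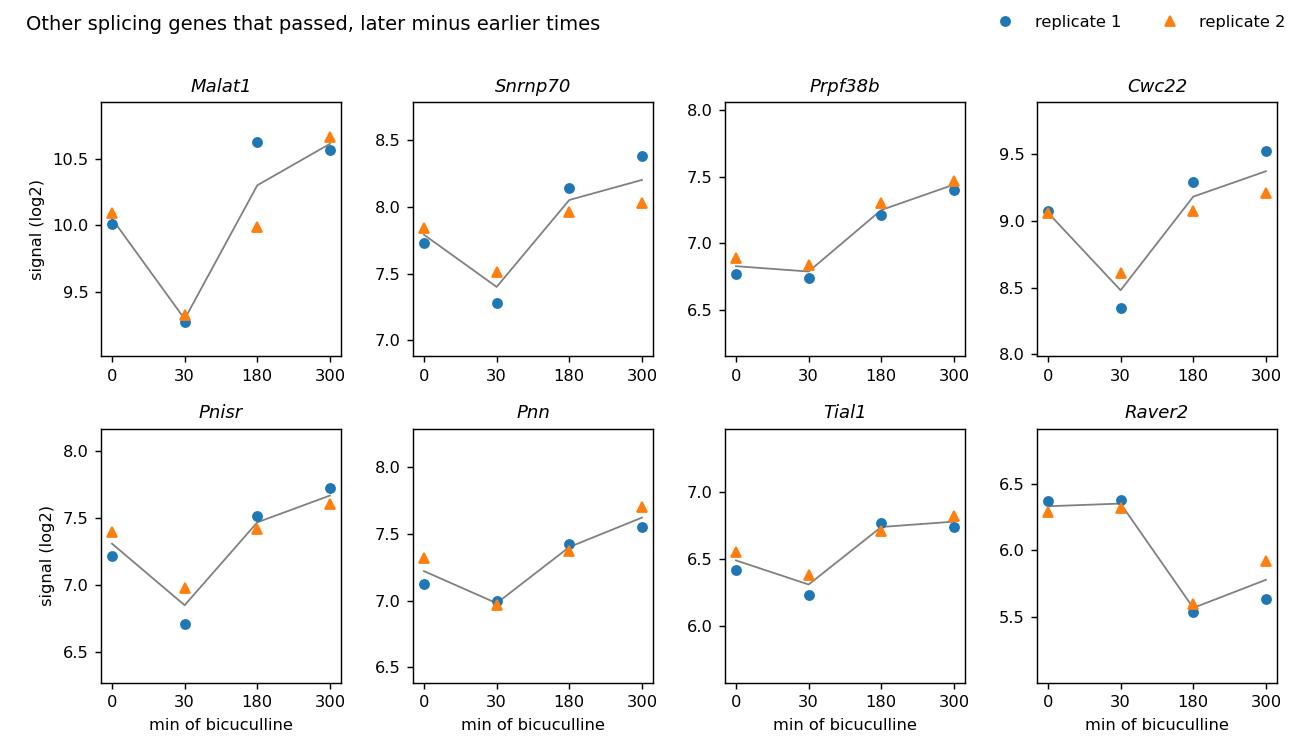
Log2 signal (vertical axis, 1.9 units in every panel) of the 8 other splicing genes that passed late against early, against the time of bicuculline in min at even spacing and not to scale; symbols are the 2 replicate arrays and the line joins their means. Malat1, Snrnp70, Cwc22, Pnisr, Pnn and Tial1 have their lowest pair at 30 min, Prpf38b is level from 0 to 30 min, and Raver2 is lower on all 4 late arrays.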

How the data were processed

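RNA of hippocampal neurons was measured at 4 times with 2 biological replicates each, which gave 8 arrays. Whether replicates were dissected separately is not stated, and the p-values reflect only how far these arrays differ, which may be technical, and their number limits the precision. The deposited values were 1 log2 signal per transcript cluster and array. The base of the log was taken from their range. How the authors corrected background, summarised probes and normalized the arrays is not given in the sources used here; such steps can shrink the changes of dim genes.

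Of 35399 rows, 21789 carried 1 gene symbol in the platform annotation, 1621 several and 11989 none, and 21698 matched RefSeq (GRCm38.p6) by gene number. Names and promoters came from these tables. The cluster with the highest mean stood for each of 19938 genes, and no dim gene was removed. limma 3.58.1 in R 4.3.3 (lmFit, eBayes; prior degrees of freedom 10.1, residual 4) fitted 1 mean per time to all 8 arrays. The two-sided p-values were adjusted by the Benjamini-Hochberg method across the 19938 genes, and 0.05 was the threshold. Besides 30, 180 and 300 min against 0 min, 180 was set against 30 min, 300 against 180 min, and 180 with 300 against 0 with 30 min, called late against early. The fit was tested on simulated data.

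Named members were those that passed, the 6 largest changes each way at 30, 180 and 300 min and late against early, all members of the small families Clk, Ccnl, Tra2, Rbfox, Nova, Ptbp and Celf, and the genes with the highest and lowest signal in each other family, a choice of names and not a comparison of levels. Srpk1, Srpk2, Srpk3, Prpf4b, Dyrk1a, Dyrk1b, Cdk11b, Cdk12, Cdk13, Rbm4b, Rbm8a2, Rbm33, Sf3b2, Srsf9 and Hnrnpul2 were named after their values were seen. The members, the lists and the late against early comparison were chosen with earlier results of these data known. Alternatives were another normalization, a filter on low signals, other ways to treat clusters and rows, another prior and a replicate block. Each array was also left out in turn, and the ranges given over the alternatives do not include these fits.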

Additional observations from a re-analysis of the deposited data

Results flagged for a closer look

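For Clk4, Ccnl2 and Luc7l3 the change from 0 min at 180 min differed from that at 30 min, by 0.80 for Clk4, 0.73 for Luc7l3 and 0.64 for Ccnl2 on the log2 scale (limma, adjusted p under 0.05). Both changes are taken from the same 0 min arrays, so this difference equals that between the 180 and 30 min arrays. In each of the 3 genes both 30 min arrays lay below both 0 min arrays and both 180 min arrays above them. This order was not confined to them. Clk3 and Luc7l, for example, had it without passing at 180 against 30 min (limma adjusted p = 0.139 and 0.66).

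A further transcript cluster of 2 members carried a change that the brightest cluster did not. The third cluster of Tra2a had signals of 5.85 and 5.85 at 0 min, 4.80 and 5.61 at 30 min, 6.34 and 6.01 at 180 min, and 6.46 and 6.29 at 300 min, a late increase of 0.75 ± 0.14 SE (limma adjusted p = 0.0156 over 21789 clusters). It stood at 0.95 without 30 min replicate 2 and at 0.55 without 30 min replicate 1, and the call was lost without replicate 1 of each time, with limma adjusted p of 0.0502 to 0.0766. The third cluster of Rbm33 had signals of 5.17 and 4.79 at 0 min, 4.55 and 4.6 at 30 min, 5.57 and 5.20 at 180 min, and 5.55 and 5.16 at 300 min, an increase of 0.59 ± 0.12 SE (limma adjusted p = 0.019), against 0.02 in its brightest cluster. That call was lost without 5 of the 8 arrays, with a highest limma adjusted p of 0.104 (without 30 min replicate 1). The other 25 of 27 further clusters lay within 0.25 of the brightest cluster of their gene late against early. In other comparisons clusters of a gene differed more, as in Celf2 at 300 against 180 min (0.70 in the second cluster and 0.16 in the brightest, neither of which passed). What part of a transcript these clusters measure was not tested.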

How the results depend on the processing

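Late against early, Clk1, Clk4, Ccnl2 and Luc7l3 rose under every alternative except the test of every row of the table, rows without a gene included, where the 1 member higher was Clk4 (limma adjusted p = 0.0484), 0 were lower, and 0 passed at 300 min, at 180 against 30 min or in the F test. None of the 8 other splicing genes called late against early passed there either. Clk3 too rose under all the other alternatives, but its call held without only 2 of the 8 arrays in turn. With a prior that depends on signal and is robust to outliers, 1 member was lower at 30 min (Luc7l3), 1 higher at 180 min (Clk1) and 3 higher at 300 min (Clk1, Clk4 and Ccnl2). Without genes of low signal, 1 was higher at 180 min, 3 were higher at 300 min and 0 were lower late against early, where Rbm46 was among the genes left out and so not tested. With clusters averaged, 2 were higher at 300 min (Clk1 and Clk4). Quantile normalization took the members' median to −0.05 at 30 min, −0.02 at 180 min, 0.02 at 180 against 30 min, 0.04 at 300 against 180 min and 0.04 late against early, and the split of all genes late against early to 258 higher and 143 lower, against 240 and 202. Testing every cluster with 1 symbol, chosen after seeing the data, gave 253 and 240.

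Without 1 array, the members higher were 4 to 5 and lower 0 to 1 late against early, 0 to 1 higher at 180 min, 0 to 3 at 180 against 30 min, 0 to 1 at 300 min (Clk1, or Hnrnpr without 300 min replicate 2) and 2 to 4 in the F test. Their median ran from −0.02 to 0.03 late against early, −0.12 to −0.06 at 30 min, −0.10 to −0.05 at 180 min, −0.03 to 0.04 at 300 min, −0.04 to 0.03 at 180 against 30 min and 0.04 to 0.13 at 300 against 180 min. Where the arrays of a time were reduced to 1, it was assumed to vary like the others.

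Replicate numbers did not pair the arrays: the correlations of same-numbered deviations lay between −0.09 and 0.09. A replicate block gave 5 members higher and 1 lower late against early, 3 higher at 180 against 30 min and 1 at 300 min, the counts without it. Of 3251 recomputed values of named genes that did not pass, 109 changed sign. The cause of these differences was not tested.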
